A study of Mus musculus with 17 samples.

Results

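The genes described here are the Fos and Jun family, the subunits of the transcription factor AP-1 and close relatives, taken by symbol from a list of 9 genes: Fos, Fosb, Fosl1, Fosl2, Jun, Junb, Jund, Atf3 and Batf. All 9 were listed in the bulk files, which hold 36293 genes, and in the single-nucleus files, which hold 37608 genes. The study compared adult male C57Bl/6J mice after chronic unpredictable stress (CUS) with unstressed mice. CUS began at 9 to 10 weeks of age and ran for 12 days with 3 varied stressors a day, in mice housed 4 to 5 per cage. Control mice lived in a separate room and were handled daily. Bulk nuclear RNA-seq was done on the medial prefrontal cortex (mPFC) of 4 control and 5 CUS mice labelled postnatal day 90, and sNucDrop-seq, a droplet method for single nuclei, on the neocortex of 4 control and 4 CUS mice labelled postnatal day 80. The sample labels place collection 24 h after the final stressor in both assays. The study's methods instead place the bulk collection 24 h after the last behavioral test. Start age and length of CUS were given alike for both, so the later day label of the bulk mice goes with the methods. The bulk and single-nucleus mice were different animals, and no genetic change or drug was applied to either group.

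AP-1 is a dimer of basic leucine zipper proteins. Fos proteins (Fos, Fosb, Fosl1, Fosl2) cannot pair with one another and bind DNA as partners of a Jun protein (Jun, Junb, Jund), while Jun proteins can also pair among themselves. In neurons, synaptic activity and calcium entry switch on Fos, Fosb and Junb within minutes through the factors SRF, ELK and CREB, which is why Fos RNA is widely used as a mark of recent firing, whereas Jund is present at rest. Jun is activated by the JNK kinases, Atf3 is induced by injury and cellular stress, and Batf is best known from immune cells, where it takes the place of Fos beside a Jun protein.

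Promoter sequences are shown for Fos and Fosl2, which passed the test in the bulk mPFC, and for Fosb, Jun and Junb for comparison. They are the 250 bases upstream of the RefSeq start site (build GRCm38.p6), 5′ to 3′ on the strand of the gene, and capitals mark the CREB core site TGACG or the 8-base AP-1 type site TGANNTCA, a motif added after seeing the data. Windows were found for 8 of the 9 members, and the RefSeq start is the gene start of the bulk files for Fos and Jun and lies within 30 bases of it for Fosb and Junb. It lies downstream by 671 bases for Fosl2, 51 for Batf and 34706 for Atf3, and upstream by 1210 bases for Jund.
Fos, chr12:85473640-85473889, plus strand: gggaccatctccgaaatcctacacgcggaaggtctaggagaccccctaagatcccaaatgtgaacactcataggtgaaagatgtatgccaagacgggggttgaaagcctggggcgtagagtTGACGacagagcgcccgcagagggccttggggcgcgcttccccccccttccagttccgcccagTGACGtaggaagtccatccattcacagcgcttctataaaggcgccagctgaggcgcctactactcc
Fosb, chr7:19310046-19310295, minus strand: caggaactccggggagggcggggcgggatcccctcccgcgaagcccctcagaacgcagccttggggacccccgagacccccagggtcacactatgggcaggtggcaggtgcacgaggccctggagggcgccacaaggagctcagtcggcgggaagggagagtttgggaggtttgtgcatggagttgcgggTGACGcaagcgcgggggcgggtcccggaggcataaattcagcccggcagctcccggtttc
Fosl2, chr5:32136222-32136471, plus strand: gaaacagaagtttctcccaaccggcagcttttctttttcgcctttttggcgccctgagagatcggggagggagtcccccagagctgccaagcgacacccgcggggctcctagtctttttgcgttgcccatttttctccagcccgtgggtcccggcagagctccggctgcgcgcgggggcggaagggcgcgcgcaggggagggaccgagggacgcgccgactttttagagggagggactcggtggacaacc
Jun, chr4:95052223-95052472, minus strand: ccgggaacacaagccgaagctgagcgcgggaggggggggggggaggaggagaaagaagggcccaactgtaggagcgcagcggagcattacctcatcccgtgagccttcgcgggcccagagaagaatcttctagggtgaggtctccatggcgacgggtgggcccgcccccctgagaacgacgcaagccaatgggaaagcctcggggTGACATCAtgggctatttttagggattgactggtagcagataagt
Junb, chr8:84978749-84978998, minus strand: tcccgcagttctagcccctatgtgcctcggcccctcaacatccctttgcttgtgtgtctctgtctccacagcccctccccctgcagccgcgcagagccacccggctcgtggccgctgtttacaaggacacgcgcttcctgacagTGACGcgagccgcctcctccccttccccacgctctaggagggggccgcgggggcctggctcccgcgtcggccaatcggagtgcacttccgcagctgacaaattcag
Positions are counted in bases upstream of the start site, from 1 next to it. Fos held TGACG at 129 to 125 and again at 66 to 62, with the TATA box TATAAA at 33 to 28. Fosb held TGACG at 60 to 56 and Junb at 106 to 102. The sites of Batf (98 to 94) and Atf3 (7 to 3, on the opposite strand) lie in windows not printed. TGACG was thus present in 5 of 8 member windows, and in 17.8% of the 32851 windows searched on both strands. These 32851, called all windows here, belong to RefSeq start sites, with 1 chromosome that holds no member left out. Jun carried the 8-base site as TGACATCA at 45 to 38 and Jund as TGAAATCA at 61 to 54, against 11.9% of all windows with TGANNTCA. No member window held the full CREB site TGACGTCA (1.55% of all windows), which contains TGACG and is one form of TGANNTCA, the 7-base AP-1 site TGANTCA (6.75%) or the SRF site named CArG (1.47%). The Fosl2 window held none of these, and its one match was the GC box GGGCGG at 75 to 70, a motif present in 6 of 8 member windows and 32.7% of all windows. These matches describe letters in short windows and do not show that a factor is bound. Sequence beyond 250 bases upstream was not searched, so a site missing here may still lie further upstream.

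In the bulk mPFC, Fos and Fosl2 were lower in CUS than in control mice, and no member was higher by the test. Values are reads per 1000000 reads (CPM) scaled with TMM factors, the test was edgeR's quasi-likelihood test across 18394 genes, and a gene was called at a false discovery rate (FDR) of 0.05. Of the 9 members, 7 passed the filter on low counts, and 2 of those 7 were called, both lower. Over all genes tested, 3.29% were called, with 2.13% lower and 1.16% higher. The log2 difference of CUS from control lay below 0 for 6 of the 7, with a median of -0.60 beside 0.01 for all genes. Bulk values cannot tell fewer cells of a type from less RNA per cell.

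Fos (ENSMUSG00000021250, chr12:85473890-85477273, plus strand, mm10), the founding member, measured 9.70, 9.44, 6.50 and 7.47 CPM in the 4 control mice. The 5 CUS mice had 4.19, 4.97, 3.47, 3.35 and 4.06 CPM. The highest CUS mouse lay below the lowest control mouse, so the groups did not overlap, as was the case downward for 4.7% of genes tested. Mean Fos fell from 8.28 ± 1.55 (SD, n = 4) to 4.01 ± 0.65 CPM (SD, n = 5), a log2 difference of -1.05 (SE 0.15, edgeR FDR 0.00567). It was called in each alternative fit and with any mouse left out, with an FDR of at most 0.0258 in the latter.

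Fosl2 (ENSMUSG00000029135, chr5:32135801-32157842, plus strand), the Fos relative also called Fra-2, measured 31.0, 32.4, 22.4 and 24.1 CPM in control mice. In CUS mice it measured 14.3, 21.1, 16.9, 15.9 and 15.0 CPM. Again all CUS mice lay below all control mice, and the 2 control mice with the lower Fosl2 were those with the lower Fos. Fosl2 differed by -0.73 on the log2 scale (SE 0.13, edgeR FDR 0.0131), from a mean of 27.5 ± 4.97 to 16.6 ± 2.66 CPM. Without control mouse 2 the FDR was 0.0512 and the call was lost.

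Fosb (ENSMUSG00000003545, chr7:19302696-19310051, minus strand), whose truncated product ΔFosB is long-lived and known to build up with repeated stimulation, did not pass the test. Its values were 4.76, 4.25, 3.06 and 3.39 CPM in control mice and 2.20, 3.35, 2.16, 2.29 and 2.79 CPM in CUS mice, so that CUS mouse 2 lay above control mouse 3. The log2 difference was -0.60 (SE 0.17, edgeR FDR 0.0708). With single mice left out the edgeR FDR ran from 0.0287 to 0.181, so whether Fosb was called depended on the mice. The files count reads per gene, so the full-length and truncated forms were not separated.

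Fosl1, also called Fra-1, gave 17 reads over all 9 mice, 0 to 3 in control and 1 to 4 in CUS mice, and was not tested.

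Among the Jun proteins none was called. Jun (ENSMUSG00000052684, chr4:95049034-95052222, minus strand) measured 5.13, 7.32, 7.55 and 6.84 CPM in control mice and 4.94, 5.72, 5.05, 4.90 and 5.23 CPM in CUS mice. Control mouse 1 was within the CUS range, the other controls above it. The log2 difference was -0.38 (SE 0.12, edgeR FDR 0.0876), and without control mouse 1 Jun was called. Junb, an early responder to activity, ranged from 5.81 to 8.81 CPM in control and 5.05 to 8.85 CPM in CUS mice, with a log2 difference of -0.16 (SE 0.17, edgeR FDR 0.619). For Junb the ranges overlapped over most of their length, and the log2 difference lay between -0.29 and -0.06 with single mice left out. Jund, the constitutive member, measured 1.40, 2.83, 3.40 and 3.03 CPM in control and 3.00 to 3.58 CPM in CUS mice, a log2 difference of 0.31 (SE 0.20, edgeR FDR 0.396). Its low control value, in control mouse 1, came from 37 reads, against 84 to 92 in the other control mice, and without this mouse the log2 difference was 0.10.

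Atf3 measured 0.642, 1.42, 0.822 and 1.32 CPM in control mice and 0.438 to 0.670 CPM in CUS mice. Control mouse 1 lay within the CUS range. The log2 difference was -0.92 (SE 0.26, edgeR FDR 0.0686), from 13 to 42 reads per mouse. With single mice left out the edgeR FDR of Atf3 ran from 0.0328 to 0.205, on both sides of the threshold. Batf gave 7, 5, 5 and 4 reads in control mice and 19, 7, 18, 8 and 8 in CUS mice, and was below the filter. Scaled to CPM its groups did not overlap, with 0.188 ± 0.0559 in control and 0.420 ± 0.203 in CUS mice, but the nearest mice were at 0.264 and 0.265 CPM. CUS mice lay above control mice without overlap in 4.06% of genes tested.

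**Figure D1:**
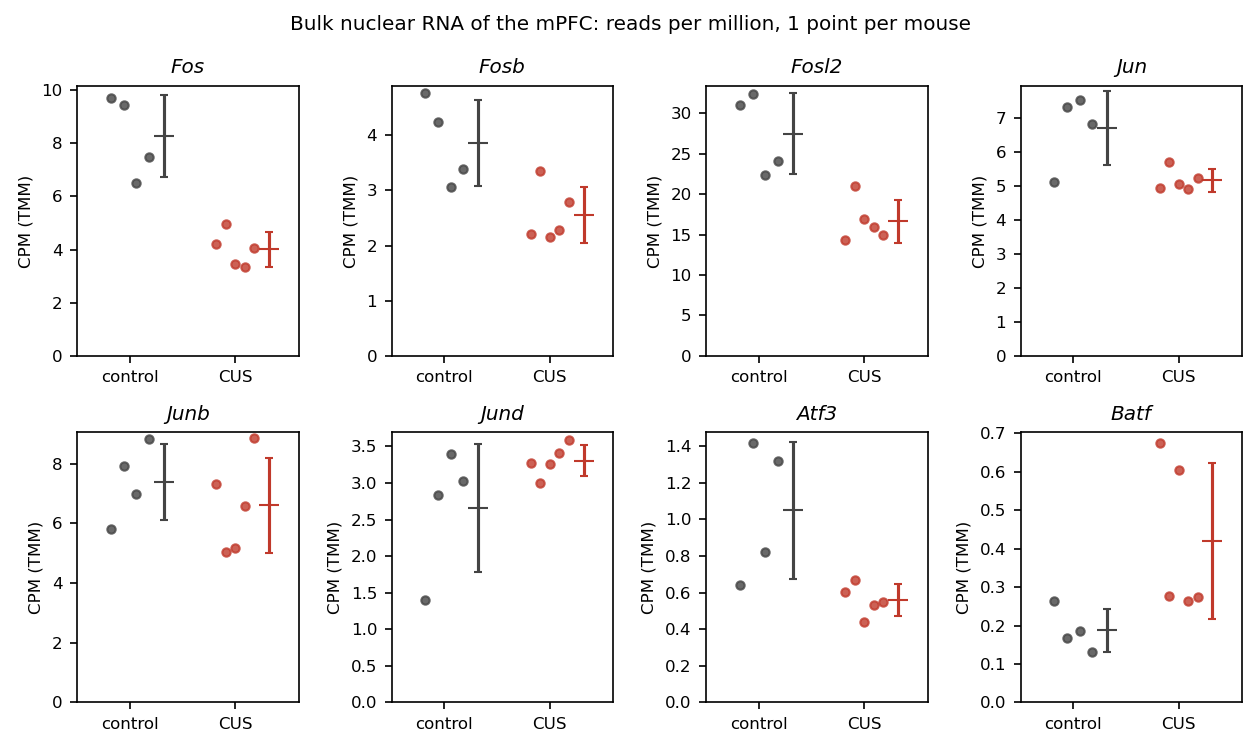
CPM of reads (TMM scaled, vertical axis from 0) of 8 members in the bulk mPFC, 1 point per mouse, with the mean and SD of 4 control (gray) and 5 CUS mice (red). For Fos and Fosl2 every CUS mouse lies below every control mouse, for Junb the groups overlap, and the low control point of Jund is at 1.40 CPM.

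The choice of test moved the count. The likelihood ratio test of edgeR and DESeq2 each called 5 members (Fos, Fosb, Fosl2, Jun and Atf3), the same 5 that had an unadjusted p under 0.05 in the quasi-likelihood test. The likelihood ratio test is the one the study used for its bulk data, where it names Fos, Fosb and Fosl2 as lower. These tests also called more genes, 7.23% of all genes by the likelihood ratio test and 7.68% by DESeq2, and 21.5% of all genes had an unadjusted p under 0.05. Leaving out single mice gave 1 to 4 calls, while the share of all genes called ran from 0.714% without control mouse 2 to 8.1% without control mouse 3. Junb and Jund were not called in any of these fits.

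Some members share their position with another gene. Junos, an antisense RNA, overlaps Jun on the opposite strand and had a log2 difference of -0.15 (edgeR FDR 0.453). Prdx2 overlaps the end of Junb from the opposite strand (log2 difference 0.15, edgeR FDR 0.327), and the antisense RNA Gm11175 lies within Jund and was too low to test. The library kept strand, but the sources do not state that the counting used it, so reads of Jun, Junb and Jund cannot be told apart from those of these partners. Fos and Fosl2 overlapped no other listed gene, and no gene started within 5 kb of either. Within 5 kb of the other members, Fibp near Fosl1 had a log2 difference of 0.26 (edgeR FDR 0.171) and Rnaseh2a near Junb 0.21 (edgeR FDR 0.179). Ccdc85b, Gm12703 and Gm16486 had an edgeR FDR between 0.843 and 0.994, and Gm26802 was not tested.

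Markers of some cell types differed between control and CUS mice in the same bulk libraries. The summed level of 6 astrocyte markers was 283 to 327 CPM in control and 220 to 265 CPM in CUS mice, with 3 of 6 genes called lower. That of 6 markers of oligodendrocyte precursor cells (OPC) was 330 to 407 against 258 to 318 CPM, with 1 called lower. Of 4 markers of Enpp6-type oligodendrocytes, summing to 132 to 161 against 117 to 137 CPM, 2 were called lower. The 7 markers of striatal neurons summed to 721 to 1163 CPM in control and 1223 to 1473 CPM in CUS mice, with 1 called higher. Excitatory neuron markers summed to 1033 to 1349 and 1321 to 1405 CPM, with 1 of 6 called higher. Opalin-type oligodendrocyte markers summed to 242 to 590 against 262 to 331 CPM, with 0 of 6 called, and choroid plexus markers to 3.06 to 7.27 against 2.58 to 3.27 CPM, with 1 called lower. The 6 markers of parvalbumin interneurons summed to 465 to 505 and 516 to 583 CPM, with 0 called, and the 7 microglia markers to 106 to 113 and 102 to 121 CPM. Claustrum markers summed to 186 to 226 and 190 to 262 CPM, with 1 of 5 called lower. That marker is Nr4a2, which is also in the list of rapid response genes below, so the 2 calls are the same value. The 5 markers of Ndnf interneurons summed to 196 to 227 and 200 to 228 CPM, with 1 called lower and 1 higher. No marker was at 0 in these lists, and the part of these shifts in the difference of Fos and Fosl2 was not tested.

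Genes around AP-1 were described by 4 lists of 63 genes, of which 59 were tested and 7 called, beside 3.29% of all genes tested. The kinases and factors upstream of Fos and Jun (ERK, JNK and p38 kinases, MAP2K activators, ELK, SRF, MEF2, CREB) had 0 of 21 genes called, with a median log2 difference of -0.01. At an unadjusted p under 0.05, 3 of the 21 were found, namely Elk1, Rps6ka5 and Mef2c, beside 21.5% of all genes, and DESeq2 and the likelihood ratio test each called Elk1 and Rps6ka5. Rps6ka5 was also called without TMM factors, with no filter on low counts and without control mouse 1 or 3 (edgeR FDR of 0.0278 to 0.0485). The largest differences were those of Rps6ka5, a kinase that phosphorylates histone H3 and CREB (-0.30, edgeR FDR 0.0540), Elk1 (0.23, edgeR FDR 0.0628) and Mapk3, which encodes ERK1 (-0.18, edgeR FDR 0.348, between -0.23 and -0.10 with single mice left out).

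Among 6 related zipper proteins, 1 was called, beside 3.29% of all genes tested. Creb5, a partner of Jun, fell from 24.7 ± 2.75 to 17.3 ± 2.96 CPM (log2 difference -0.51, edgeR FDR 0.0360), with every CUS mouse at or under 20.8 CPM and every control mouse at or over 22.8 CPM. The call was lost without control mouse 2 or without CUS mouse 1, 4 or 5, with an FDR of up to 0.0990. Batf2 (0.58, edgeR FDR 0.319) and Batf3 (0.45, edgeR FDR 0.413) were not called, and with single mice left out their log2 differences ran from 0.33 to 0.84 and from 0.25 to 0.69.

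Of 16 genes often named as AP-1 targets, 12 were tested, 6 on each side of 0. Of these 12, 1 was called, beside 3.29% of all genes tested. Vgf, which encodes a secreted neuropeptide precursor, rose from 16.5 ± 4.26 to 24.7 ± 3.22 CPM (log2 difference 0.59, edgeR FDR 0.0465), although control mouse 3 at 22.4 CPM lay above CUS mouse 2 at 20.4 CPM. This call was lost without control mouse 1, 2 or 4 and without CUS mouse 1, 3, 4 or 5, with an FDR of up to 0.137. Penk, the enkephalin precursor, measured 4.49, 4.96, 3.59 and 16.0 CPM in control mice and 2.51 to 4.10 CPM in CUS mice. Control mouse 4 stood far above the rest, and the log2 difference of -1.25 had an edgeR FDR of 0.0841. Without that mouse it was -0.49, and without control mouse 3 Penk was called (edgeR FDR 0.0253). Plau, a protease of the extracellular matrix, had a log2 difference of 0.60 (edgeR FDR 0.169).

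The rapid response genes, which like Fos need no new protein to be transcribed, had 5 of 20 called, all lower. Over all genes, 2.13% were called lower. Of the 20 genes, 15 had a log2 difference below 0, beside 48.7% of all genes. The list was chosen with earlier results of these data known, so these counts describe it and do not test it. Nr4a2 fell from 8.50 ± 1.96 to 2.53 ± 0.57 CPM (edgeR FDR 0.00107) and Nr4a3 from 67.1 ± 21.6 to 29.5 ± 5.27 CPM (edgeR FDR 0.00954), both nuclear receptors. Cyr61, a matrix protein and target of YAP, fell from 4.37 ± 1.02 to 1.29 ± 0.20 CPM (edgeR FDR 0.00107). The antiproliferative gene Btg2 differed by -1.07 on the log2 scale (edgeR FDR 0.0198) and Dusp1, a phosphatase that turns off MAP kinases, by -0.60 (edgeR FDR 0.0100). Btg2 was no longer called without control mouse 2 or CUS mouse 4 or 5, with an FDR of up to 0.0696. In all 5 the groups did not overlap, as downward in 4.7% of all genes. None of the 5 genes with a log2 difference above 0 passed edgeR's quasi-likelihood test, namely Ier3 at 0.48 (edgeR FDR 0.202), Ier5 at 0.41 (edgeR FDR 0.0586), Egr4 at 0.28 (edgeR FDR 0.360), Maff at 0.07 and Klf10 at 0.02. Ier5 was called by DESeq2, by the likelihood ratio test, with no filter on low counts and without control mouse 3. Egr1 was at -0.01 (edgeR FDR 0.960). The median of the list was -0.16.

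In the neocortical nuclei the members were sparse. After filters on genes per nucleus, mitochondrial share and doublet score, 26699 of 40000 barcodes were kept, with 1935 to 4235 nuclei and 4699542 to 12477099 UMIs per mouse. UMIs are counted molecules. Jund was seen in 2315 nuclei, Jun in 1836, Junb in 1770, Fos in 894, Fosl2 in 357, Fosb in 211, Fosl1 in 108, Atf3 in 28 and Batf in 16. No nucleus held more than 8 UMIs of a member. Only 20 barcodes occurred in more than 1 library.

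The filter on low counts kept genes with summed UMIs over 10% of the number of nuclei, a rule that the study applied within clusters. No member exceeded it over all nuclei, so none of the 9 was tested in that fit, where 0.0199% of 5018 genes were called at an FDR of 0.2. With the filterByExpr filter of edgeR, added after seeing the data, 7 members were tested among 16669 genes and 0 were called, beside 0.006% of all genes. By edgeR's quasi-likelihood test 1 of the 7 had an unadjusted p under 0.05, beside 7.47% of all genes, and DESeq2 and the likelihood ratio test also called 0.

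Fos varied widely among control mice. The 4 control mice had 2.81, 6.59, 23.1 and 18.3 CPM, from 17, 79, 293 and 84 UMIs, and the 4 CUS mice 23.7, 19.6, 12.3 and 19.6 CPM, from 87 to 220 UMIs. Control mice 1 and 2 were below all CUS mice, and control mice 3 and 4 were within the CUS range. The log2 difference was 0.54 (SE 0.41, edgeR FDR 0.731), and between 0.24 and 1.12 with single mice left out. With no filter on low counts the model gave Fos a smaller error (log2 difference 0.55, SE 0.16) and called it at an FDR of 0.134, in a fit that called 0.864% of genes.

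Fosl2 was the 1 member with an unadjusted p under 0.05 (edgeR FDR 0.661). Its values were 4.96, 3.92, 5.20 and 5.23 CPM in control and 8.37, 6.78, 6.79 and 5.78 CPM in CUS mice. All CUS mice lay above all control mice, which held upward for 2.35% of genes in this fit. The log2 difference was 0.51 (SE 0.20).

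Fosb measured 2.48, 1.33, 4.10 and 3.70 CPM in control and 4.62, 5.53, 3.26 and 4.00 CPM in CUS mice (log2 difference 0.58, SE 0.32, edgeR FDR 0.687), and between 0.30 and 0.89 with single mice left out. Jun (0.13), Jund (0.17) and Fosl1 (0.35) were also above 0 in log2 difference, with an edgeR FDR of at least 0.767. With single mice left out, Jun lay between 0.04 and 0.23, Jund between 0.10 and 0.29 and Fosl1 between 0.10 and 0.59. Junb measured 17.0, 27.5, 44.0 and 45.3 CPM in control and 33.1, 27.7, 19.0 and 37.0 CPM in CUS mice (log2 difference -0.20, edgeR FDR 0.851), and between -0.41 and -0.01 with single mice left out. For Junb, as for Fos, control mouse 1 was the lowest of the controls. Atf3 gave 33 and Batf 16 UMIs in all, too few to test.

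**Figure D2:**
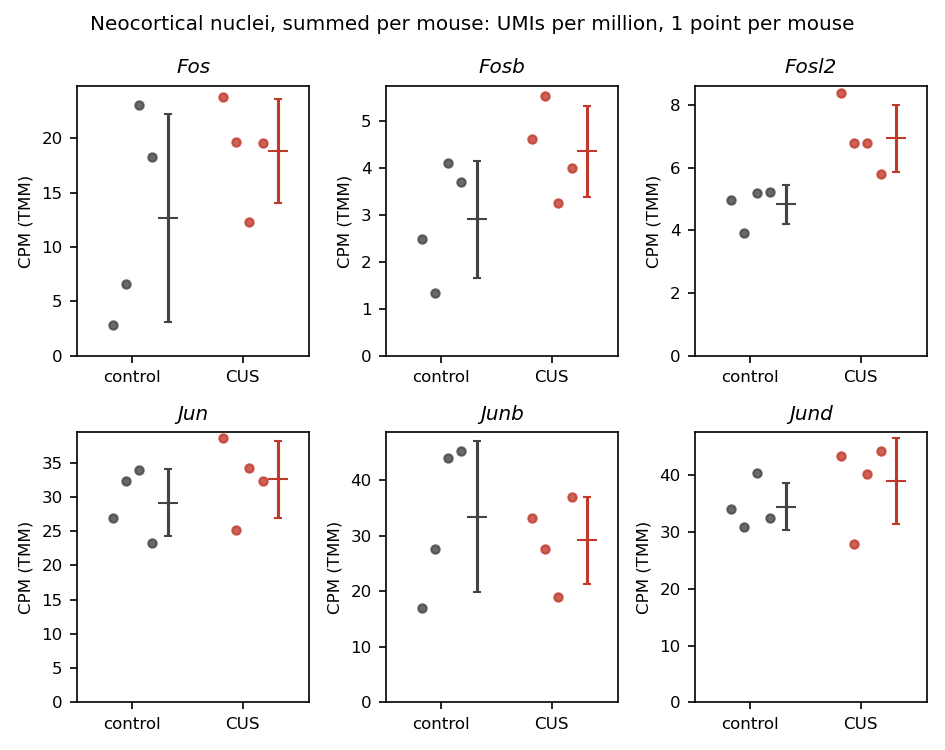
CPM of UMIs (TMM scaled, vertical axis from 0) of 6 members summed over all nuclei of each mouse, with the mean and SD of 4 control (gray) and 4 CUS mice (red). Fos in control mice runs from 2.81 to 23.1 CPM, and Fosl2 is the panel in which the groups do not overlap.

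Set side by side, the log2 difference of CUS from control was -1.05 in bulk mPFC and 0.54 in neocortical nuclei for Fos, -0.73 and 0.51 for Fosl2, and -0.60 and 0.58 for Fosb. The assays differ in mice, region, library and labelled age. By the study's methods they also differ in time of collection, after the last behavioral test for bulk and after the final stressor for nuclei. Whether the differences are unlike between the assays was not tested.

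**Figure D3:**
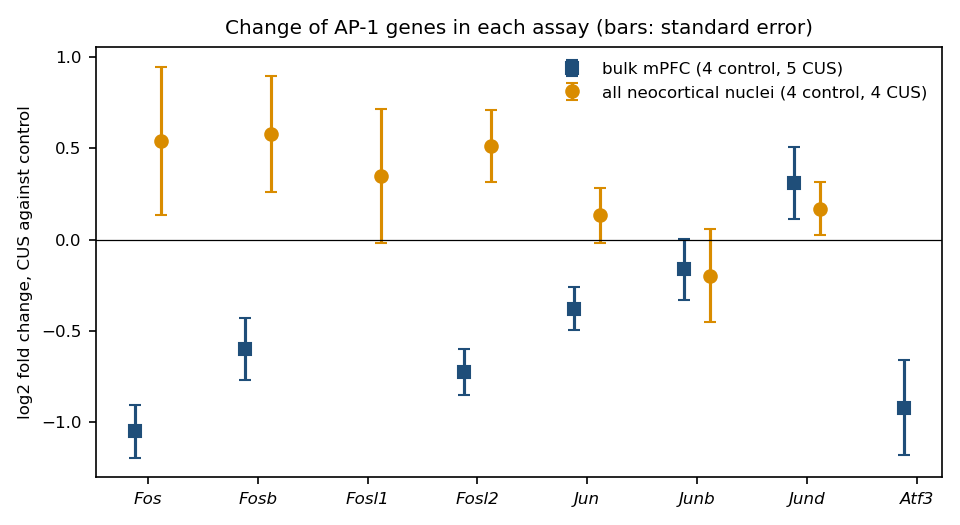
Log2 fold change of CUS against control (vertical axis) with its SE for each member tested, in bulk mPFC (blue squares, 4 control and 5 CUS mice) and in all nuclei (orange circles, 4 and 4 mice). The bulk values of Fos (-1.05) and Fosl2 (-0.73) are the only ones called at their threshold.

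Nuclei were clustered and named from marker genes, with the ending "-like", or by their leading gene where the rule gave no name. Of 33 classes, 25 held over 200 nuclei and were tested. Within them 20 tests of a member were possible, of Jun, Junb or Jund only, and 0 were called at an FDR of 0.2 by edgeR's quasi-likelihood test, against 0.122% of all gene tests in these classes. DESeq2 and the likelihood ratio test also called 0. At an unadjusted p under 0.05 there were 3 of 20, beside 6.02% of all gene tests in these classes. Among all 225 pairs of a member and a class, tested or not, the groups did not overlap in 3, each below the filter and higher in CUS mice. They were Fosl2 in Ex_L4-like nuclei, Jund in Ex_L5-like nuclei and Jun in the class led by C130073E24Rik. Over the genes tested in these classes, CUS mice lay above control mice without overlap in 1.52%.

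Of the 3 tests with an unadjusted p under 0.05, the first was Jun in OPC-like nuclei, which measured 53.3, 72.7, 102 and 141 CPM in control and 199, 208, 110 and 207 CPM in CUS mice. CUS mouse 3 lay within the control range, and each value rested on 2 to 20 UMIs. The log2 difference was 1.00 (SE 0.40, edgeR FDR 0.840). In Ex_L5-like nuclei Jun went the other way, with 26.0, 46.3, 48.5 and 43.8 CPM in control and 30.7, 16.4, 25.3 and 14.8 CPM in CUS mice (log2 difference -1.01, SE 0.33, edgeR FDR 0.612). Junb in Ex_L6-like nuclei measured 20.7, 50.3, 77.9 and 75.7 CPM in control and 37.7, 26.4, 17.5 and 48.7 CPM in CUS mice (log2 difference -0.71, SE 0.30, edgeR FDR 0.714). In each of these 3 tests the groups overlapped.

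Whether stress changed a member by a different amount in excitatory nuclei than in inhibitory, striatal-type or non-neuronal nuclei was asked within each mouse. None of the 19 exact permutation tests, two-sided, passed after Benjamini-Hochberg adjustment. The smallest p was 0.114 (Jun, excitatory minus striatal). As 4 against 4 mice can give no p under 0.0286, a single test could reach an FDR of no less than 0.543, and 11 of the 19 would have to be at the smallest p to pass, so this outcome says little about whether the changes differ.

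Of the genes around AP-1, 36 could be tested in 1 class or more, in 511 tests, and 4 tests were called at an FDR of 0.2, all higher. Vgf rose in Ex_L2/3-like nuclei (log2 difference 0.68, SE 0.16, edgeR FDR 0.0846) and in Ex_L4-like nuclei (0.74, SE 0.18, edgeR FDR 0.174). The others were Egr1 (0.84, edgeR FDR 0.0466) and Egr3 (0.61, edgeR FDR 0.168), zinc finger factors of the rapid response, in Ex_L2/3-like nuclei. Egr1 was called with any mouse left out (FDR of at most 0.191). The call of Vgf in Ex_L2/3-like nuclei was lost without control mouse 2 or CUS mouse 1 or 4 (FDR of up to 0.359). Those of Vgf in Ex_L4-like nuclei and of Egr3 were lost without control mouse 1, 2 or 4 and without CUS mouse 1, 3 or 4, with an FDR of up to 0.406 and 0.553. In these classes 0.579% and 0.238% of genes were called higher. Over all nuclei 0 of 54 genes of the lists were called by edgeR.

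Where the members were found in the cortex was compared over all 8 mice, irrespective of stress. Nuclei were grouped into excitatory (17656), inhibitory (2851), striatal-type (1792, with markers such as Drd1 and Drd2, in tissue labelled cortex) and non-neuronal (2621) nuclei, and CPM were scaled to the UMIs of the group. Unnamed classes were added to the excitatory group where at least 3 excitatory and under 3 inhibitory markers were raised, but not to the inhibitory group by the matching rule. The other 1779 nuclei, in 8 unnamed classes, were left out, with Fos at 17.3 ± 16.8 and Jun at 38.3 ± 12.4 CPM. Of these, 1273 nuclei in 4 classes carried at least 3 inhibitory and under 3 excitatory markers. Log2(CPM + 1) was compared within each mouse by an exact sign-flip permutation test, two-sided, whose smallest p over 8 mice is 0.0078, with Benjamini-Hochberg adjustment over 19 tests. These tests were added after seeing the data. At an FDR of 0.05, 7 passed. With those 1273 nuclei counted as inhibitory, an alternative also added after seeing the data, 6 of the 7 passed and Fosb did not.

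On the CPM scale, Jun and Junb differed in opposite directions between excitatory and non-neuronal nuclei. Jun was highest in non-neuronal nuclei, with a lowest, median and highest mouse of 48.5, 67.6 and 90.7 CPM, against 22.0, 33.0 and 36.6 CPM in excitatory nuclei. The ranges did not meet, and Jun was lower in excitatory nuclei in 8 of 8 mice (mean log2 difference -1.13, exact permutation FDR 0.0247). Counted per nucleus, an alternative added after seeing the data, this difference was not found, with 86.1 ± 22.6 UMIs of Jun per 1000 excitatory and 98.1 ± 31.1 per 1000 non-neuronal nuclei (log2 difference -0.17, lower in 5 of 8 mice, exact permutation FDR 0.158). In inhibitory nuclei it was at 16.1 ± 7.30 CPM and in striatal-type nuclei at 11.8 ± 6.85 CPM (SD, n = 8), lower than in excitatory nuclei in 8 of 8 mice each (log2 1.00 and 1.50, exact permutation FDR 0.0247).

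Junb was at 35.3 ± 13.0 CPM in excitatory, 34.3 ± 9.58 in striatal-type, 16.1 ± 6.42 in inhibitory and 12.9 ± 8.13 CPM in non-neuronal nuclei. It was higher in excitatory than in inhibitory nuclei (log2 1.09) and than in non-neuronal nuclei (log2 1.73) in 8 of 8 mice each (exact permutation FDR 0.0247). Between excitatory and striatal-type nuclei the log2 difference was -0.01 with an SD of 0.38 over 8 mice (exact permutation FDR 0.961).

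Fos was at 17.3 ± 8.78 CPM in excitatory, 11.2 ± 5.41 in inhibitory, 11.8 ± 10.9 in striatal-type and 7.40 ± 6.70 CPM in non-neuronal nuclei. It was higher in excitatory nuclei in 7 of 8 mice in each pair, which did not pass (exact permutation FDR 0.0742 in all 3). Fosl2 was higher in excitatory than in non-neuronal nuclei (6.45 ± 1.56 against 2.84 ± 2.82 CPM, 8 of 8 mice, exact permutation FDR 0.0247). The Fosl2 value of non-neuronal nuclei rested on 12 UMIs, 4 of them in Microglia-like nuclei, with 3 mice at 0. Fosb was higher in excitatory than in inhibitory nuclei (4.03 ± 1.55 against 1.17 ± 1.38 CPM, 7 of 8 mice, exact permutation FDR 0.0424). The Fosb difference rested on 8 UMIs in inhibitory nuclei, with 4 mice at 0, and was lost without any 1 mouse other than control mouse 1 (FDR of up to 0.0848). It was also lost with the 1273 further nuclei counted as inhibitory (2.04 ± 1.46 CPM, log2 difference 0.82, exact permutation FDR 0.0825). For Jund no pair passed on the CPM scale, with group means between 28.1 and 45.0 CPM. Over the single classes of nuclei the means of Jund ran wider, from 23.8 to 180 CPM. When nuclei with fewer than 1000 genes were left out, 3 of the 7 still passed, those of Jun and Junb against inhibitory nuclei and of Jun against striatal-type nuclei. The other 4 kept their direction, with an exact permutation FDR of 0.0594 to 0.0742. Counted per nucleus, 13 of 19 passed, among them 6 of the 7. The others were the 3 of Fos (exact permutation FDR 0.0135 to 0.0247), Fosl2 against inhibitory nuclei (exact permutation FDR 0.0343) and the 3 of Jund, higher in excitatory nuclei in 8 of 8 mice each (exact permutation FDR 0.0135). Against non-neuronal nuclei the direction of Jund turned, from a log2 difference of -0.25 in CPM (higher in excitatory nuclei in 2 of 8 mice) to 0.72 per nucleus. Counts per nucleus are not scaled to depth. The median UMIs of a nucleus, relative to the median of its library, were 0.777 to 1.6 in excitatory clusters. In non-neuronal clusters they were 0.547 to 0.806, and the part of depth in these differences was not tested.

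**Figure D4:**
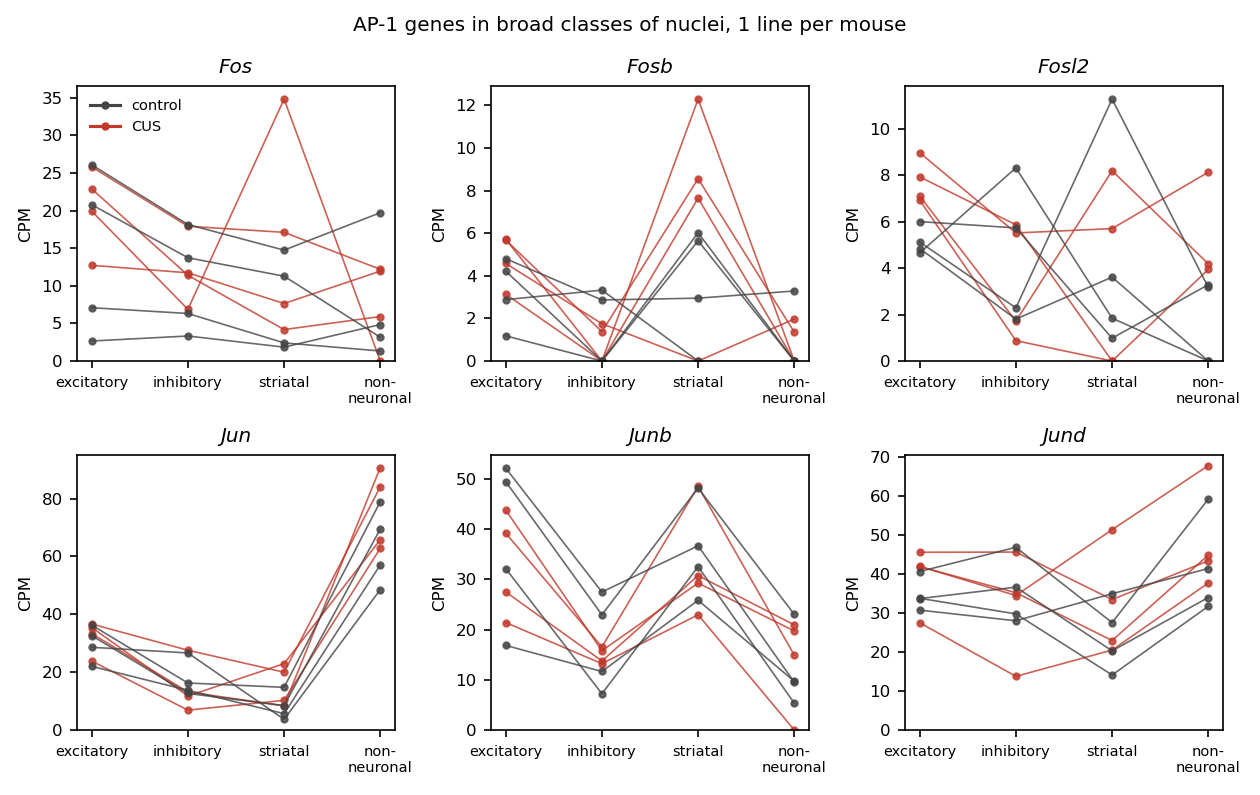
CPM of UMIs (vertical axis from 0) of 6 members in 4 broad groups of nuclei, 1 line per mouse (4 control in gray, 4 CUS in red). Jun is higher in non-neuronal than in excitatory nuclei in every mouse on this scale, and lower in inhibitory and striatal-type nuclei between them. Junb is low in inhibitory and non-neuronal nuclei and high in excitatory and striatal-type nuclei.

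RNA of excitatory neurons found in other nuclei was gauged with Slc17a7, their vesicular glutamate transporter, from UMIs pooled over mice. Slc17a7 cannot tell free RNA in the droplets from nuclei mixed with excitatory ones. In OPC-like nuclei it stood at 10.3% of its excitatory level, in Oligo_Opalin-like nuclei, which carry markers of mature oligodendrocytes, at 14.6%, in Astrocyte-like nuclei at 19.6% and in Microglia-like nuclei at 60.3%. Fos stood at 10.9% in OPC-like nuclei (1 UMI) and 13.9% in Oligo_Opalin-like nuclei (2 UMIs), close to Slc17a7, and at 61.9% in Astrocyte-like nuclei (17 UMIs). Junb had 0 UMIs in 431 OPC-like nuclei, with an exact Poisson upper limit of 7.15 CPM, and stood at 26.5% in Astrocyte-like nuclei. Jun stood at 432% in OPC-like, 217% in Oligo_Opalin-like and 194% in Astrocyte-like nuclei, above its excitatory level in all 3 on the CPM scale. Per 1000 nuclei Jun had 167 UMIs in OPC-like, 91.3 in Oligo_Opalin-like and 83.0 in Astrocyte-like nuclei, against 90.1 in excitatory nuclei. Microglia-like nuclei also carried the 6 excitatory markers, 5 inhibitory markers and 6 markers of Opalin-type oligodendrocytes. The same number of tests, 7, passed when these nuclei were left out, also an alternative added after seeing the data. Intervals of pooled UMIs cover counting error only.

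Among the 25 classes, each gene had its own order, given here as the mean over 8 mice on the CPM scale. Jun was highest in OPC-like nuclei (137 ± 62.2 CPM, lowest mouse 52.8), then in the class led by Fyb2 (83.5 ± 23.5 CPM), and lowest in Inh_Ndnf-like nuclei (10.2 CPM). Per 1000 nuclei, pooled over mice, the class led by Fyb2 had more UMIs of Jun (288) than OPC-like nuclei (167). Junb was highest in Claustrum-like (62.5 ± 40.0 CPM), Ex_L6-like (44.5 ± 23.4 CPM), Ex_L4-like (38.6 ± 15.9 CPM) and Ex_L2/3-like nuclei (38.4 ± 16.9 CPM). Per 1000 nuclei Junb had another order among these classes and Ex_L5-like nuclei. Pooled UMIs were 169 in Claustrum-like, 128 in Ex_L5-like, 114 in Ex_L2/3-like, 107 in Ex_L6-like and 92.5 in Ex_L4-like nuclei, and other classes are not placed in it. On the CPM scale, among neurons it was lowest in Inh_Ndnf-like (10.1 ± 12.9 CPM) and Inh_Pv-like nuclei (13.3 ± 7.09 CPM).

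On the CPM scale Fos was highest in the class led by Nefm (27.1 ± 37.3 CPM, 12 UMIs, 4 mice at 0), then in Ex_L4-like nuclei (25.9 ± 14.4 CPM), the class led by Pbx3 (25.4 ± 40.6 CPM, 16 UMIs, 5 mice at 0), Claustrum-like (23.9 ± 23.8 CPM, 25 UMIs) and Ex_L6-like nuclei (20.9 ± 14.7 CPM). Further down this order it was at 18.1 ± 11.2 CPM in Ex_L2/3-like, 7.32 ± 5.12 in Inh_Pv-like and 1.27 ± 3.59 CPM in OPC-like nuclei. Per 1000 nuclei, pooled over mice, Fos had 66.0 UMIs in Claustrum-like, 62.7 in Ex_L4-like and 57.9 in Ex_L5-like nuclei, and 52.9 in the class led by Nefm. Fosl2 was highest on the CPM scale in the excitatory class led by Tshz2 (40.7 ± 36.5 CPM, 21 UMIs) and in that led by Cpne7 (13.9 ± 4.97 CPM), and had 0 UMIs in Oligo_Opalin-like nuclei. Per 1000 nuclei it had 46.7 UMIs in the class led by Tshz2, 46.2 in that led by Cpne7 and 44.9 in Claustrum-like nuclei. Fosb had 0 UMIs in 5 classes, namely Astrocyte-like, OPC-like, Inh_Ndnf-like and Inh_Vip-like nuclei and the class led by Nefm. In these orders on the CPM scale no neighbors differed at an unadjusted p under 0.05 by an exact sign-flip permutation test, 24 pairs per gene, except Junb between Astrocyte-like and OPC-like nuclei (p = 0.0313).

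**Figure D5:**
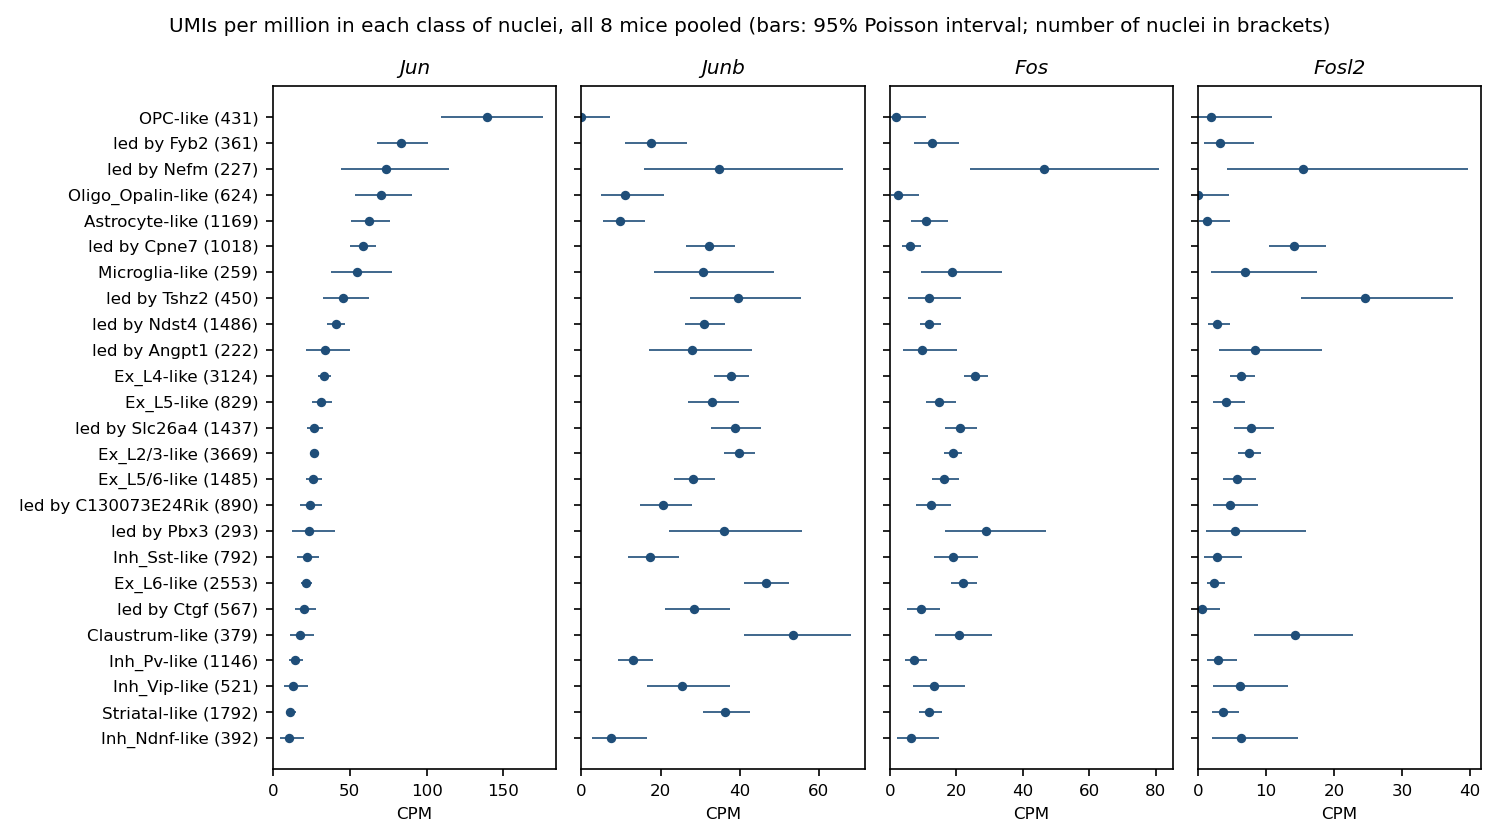
CPM of UMIs (horizontal axis from 0) of Jun, Junb, Fos and Fosl2 in the 25 classes, all 8 mice pooled, with the 95% Poisson interval and the number of nuclei in brackets, in order of Jun. Jun is highest in OPC-like nuclei, where Junb is at 0 and Fos rests on 1 UMI.

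Across the 25 classes the pooled log2(CPM + 1) of Fos followed that of Junb (Pearson r = 0.73) more than that of Jun (r = -0.25), and Jun and Junb had r = -0.40. Among 5018 genes, the 5 most like Fos were Egr1 (r = 0.77), Plec (0.77), Atp2b2 (0.76), Pld3 (0.75) and Dmtn (0.75). Those most like Junb were 1700016P03Rik (r = 0.86), Adgrl2 (0.83), Oscp1 (0.81), Dgkz (0.81) and Fam126b (0.80). Jun was followed by Ptn (r = 0.77), Neo1 (0.68), Gnaq (0.68), Gpc5 (0.68) and Itgav (0.66), and Fosl2 by Syt4 (r = 0.80), Cadm3 (0.75), Nptn (0.73), Kcnj9 (0.71) and Ajap1 (0.71). These correlations describe classes that share the same 8 libraries and differ in depth, so no p is given.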

How the data were processed

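The deposited bulk values are counts of uniquely mapped reads per gene, which the authors made with STAR on mm10 and in-house programs, not normalized. The annotation, the use of strand and the treatment of introns are not given in the sources used here. The deposited sNucDrop-seq values are counts of UMIs per gene for 5000 barcodes per mouse, exonic and intronic, on mm10 with Gencode annotation. The bulk depth was 26188825 to 30525015 reads per mouse. Whether PCR copies were removed from bulk reads is not given in the sources used here.

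Each mouse was 1 replicate, and groups came from the sample labels. The members, gene lists and markers were chosen with earlier results of these data known. All members were named, with the listed genes that were called, the 3 largest differences of each list, genes within 5 kb and the 5 genes most alike over classes. Ier3, Egr1 and Mef2c in bulk were named after their values were seen.

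Bulk counts were tested with edgeR 4.0.16 in R 4.3.3 (filterByExpr, TMM, quasi-likelihood, FDR 0.05). Barcodes were kept when 600 to 5000 genes were detected, mitochondrial UMIs were below 5% and the Scrublet score (scanpy 1.11.5, expected rate 0.1) did not pass 0.2, and this score removed 4787. Nuclei were clustered with Seurat 5.3.0 on 2000 variable genes less 3 members, with 50 principal components and 20 neighbors at resolution 1, and named when 3 markers were enriched 1.5-fold with 2 among the 10 leading genes. UMIs were summed per mouse and tested with edgeR at an FDR of 0.2, for genes with summed UMIs over 10% of the nuclei. This left 2573 to 6527 genes per class, fewer than the study methods state for its clusters under this rule, and the cause was not found. Per the study methods the nuclei were run in 2 batches, each with 2 control and 2 CUS mice, but the labels do not tie mice to batches, so no batch term was used. The study reports a strong batch effect on expression and put batch in its model, so the tests of nuclei here differ from its own in this. Alternatives included DESeq2 1.42.0. The tests were tested on simulated data.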

Additional observations from a re-analysis of the deposited data

How the results depend on the processing

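The likelihood ratio test and DESeq2 each called 5 members in bulk, against 2, and 12 genes of the pathway lists, against 7, while 7.23% and 7.68% of all genes were called, against 3.29%. With each mouse left out in turn, 1 to 4 members and 4 to 13 pathway genes were called. Without control mouse 2 there were 1 and 4 (0.714% of all genes), and without control mouse 3 there were 4 and 13 (8.1%). With no filter on low counts 1 member (Fos) was called in all nuclei, against 0. In all nuclei and in the classes, leaving out a mouse gave 0 calls of members throughout. For the differences between classes the count was also 0, which the number of mice all but fixes. Of the 19 comparisons of level, 7 passed, 3 with at least 1000 genes per nucleus, 13 counted per nucleus, 6 with the unnamed classes of inhibitory markers counted as inhibitory, and 6 to 10 with a mouse left out. Why these counts moved was not tested.

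Replicate numbers only name mice. Same-numbered control and CUS mice had correlations of their deviations of 0.0334 to 0.230 in bulk, where those of different numbers had -0.239 to 0.159. In bulk all same-numbered values were thus above 0, and the highest of all was that of control and CUS mouse 2. In nuclei same-numbered mice had -0.453 to 0.400, where control and CUS mice of any numbers had -0.592 to 0.531. The labels state no pairing, and the mice were not treated as pairs. A fit with a replicate block was run as an alternative. In bulk, CUS mouse 5 has no control of its number and so does not inform the contrast under the block. With the block Fos and Fosl2 were again the members called in bulk, and no member was called in all nuclei or in the classes. Under the block, Vgf and Btg2 were not called in bulk (FDR 0.0903 and 0.0524), and Rps6ka5 and Npas4 were. For the class calls of pathway genes, alternatives were added after seeing the data. Vgf in Ex_L4-like nuclei was not called with at least 1000 genes per nucleus (FDR 0.252), nor Egr3 without TMM factors (0.243) or with filterByExpr (0.202). Also added were a prior of 5 CPM and TMM factors for levels, each with 7 comparisons passing. The low UMI counts limit what could be seen in nuclei, and the batches of mice, balanced over stress in the study methods, were not modelled because the labels do not give them.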
